A study of Mus musculus with 14 samples.

Results

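The genes described here encode the complement and coagulation proteins that liver releases into blood, together with their regulators and a few of their receptors. They were taken by gene symbol from a fixed list of 43 protein-coding genes out of 77981 in the count table, with no threshold on their values, and all 43 were found. RNA 3′ ends were counted in 14 mouse liver tumours: 4 from animals lacking Cdk16 and Cdk18 (DKO), 5 from animals lacking Cdk18 (CDK18KO) and 5 from wild-type animals (WT). In every animal the tumour was started by hydrodynamic injection of plasmids carrying mouse c-Myc and β-catenin, which mainly reaches hepatocytes, and it was collected at a diameter of 15 mm, at distress or at 8 weeks. Cdk16, flanked by loxP sites (Cdk16 fl/fl), was removed in tumours already formed by Cre-ERT2, a recombinase that tamoxifen switches on, with 75 mg/kg given on 5 days and tissue taken 10 days later. Per the labels' protocols Cre-ERT2 controls received tamoxifen too, but the promoter driving Cre, the age of the animals, and whether the WT and CDK18KO tumours came from such controls are not given in the sources used here. Effects of Cre and tamoxifen and of Cdk16 loss in DKO therefore cannot be told apart. Libraries of a group are described in the series' design as biological replicates.

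Complement is a cascade of serum proteins that coats microbes and dying cells. It starts from antibodies, from sugars bound by mannose-binding lectins, or by slow turnover of C3, passes through C3 and C5, and ends in a pore built of C5b to C9. Coagulation is a parallel cascade of proteases that turns prothrombin into thrombin, which cleaves fibrinogen to fibrin. Hepatocytes make most of both, whereas tissue factor, its inhibitor TFPI, properdin and the receptors for the C3a and C5a fragments are made largely by other cells.

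Total counts ran from 1442417 in WT 5 to 6068209 in WT 2. Values below are CPM, counts scaled to a common library total, and because 1 tag is read per transcript they are not divided by gene length. Cdk16 stood at 17.8 to 48.5 CPM in DKO, 31.05 to 65.8 CPM in CDK18KO and 40.0 to 59.2 CPM in WT. Cdk18 stood at 0.563 to 4.00 CPM in DKO, 0.927 to 3.42 CPM in CDK18KO and 1.26 to 10.4 CPM in WT, so both targeted genes overlapped between the groups, and 3′ tags do not show a deletion upstream of them. Summed Y-linked counts passed 100 CPM in CDK18KO 1, WT 3 and WT 5 and in no DKO library. WT 1 and WT 4 had 33.0 and 18.3 CPM, WT 2 had 3.85 CPM, and DKO libraries had 0.647 to 2.78 CPM. Y-linked transcripts were thus not balanced between groups, and the sample labels give no sex. A refit below without the libraries above 100 CPM keeps WT 1 and WT 4. The labelled tissue showed hepatocyte transcripts in every library, but their sum over 19 marker genes spanned 1982 to 30647 CPM in DKO, 1786 to 19971 CPM in CDK18KO and 217 to 5423 CPM in WT.

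Complement and coagulation transcripts took a larger share of the messenger RNA in most knockout tumours than in most WT tumours, and the groups overlapped. The 43 genes held 1.497%, 1.75%, 0.220% and 0.620% of all counts in DKO 1 to 4. In CDK18KO 1 to 5 they held 0.289%, 1.44%, 0.233%, 0.930% and 0.927%. In WT 1 to 5 they held 0.0326%, 0.560%, 0.0595%, 0.0695% and 0.164%. Among WT tumours WT 2 exceeded DKO 3, CDK18KO 1 and CDK18KO 3, while the other 4 WT libraries stood below all 9 knockout libraries. In these bulk samples, fewer hepatocytes and less of these transcripts in each hepatocyte cannot be told apart. The hepatocyte marker sum ordered the libraries in a like way, and its part in the differences was examined only as given further on.

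**Figure D1:**
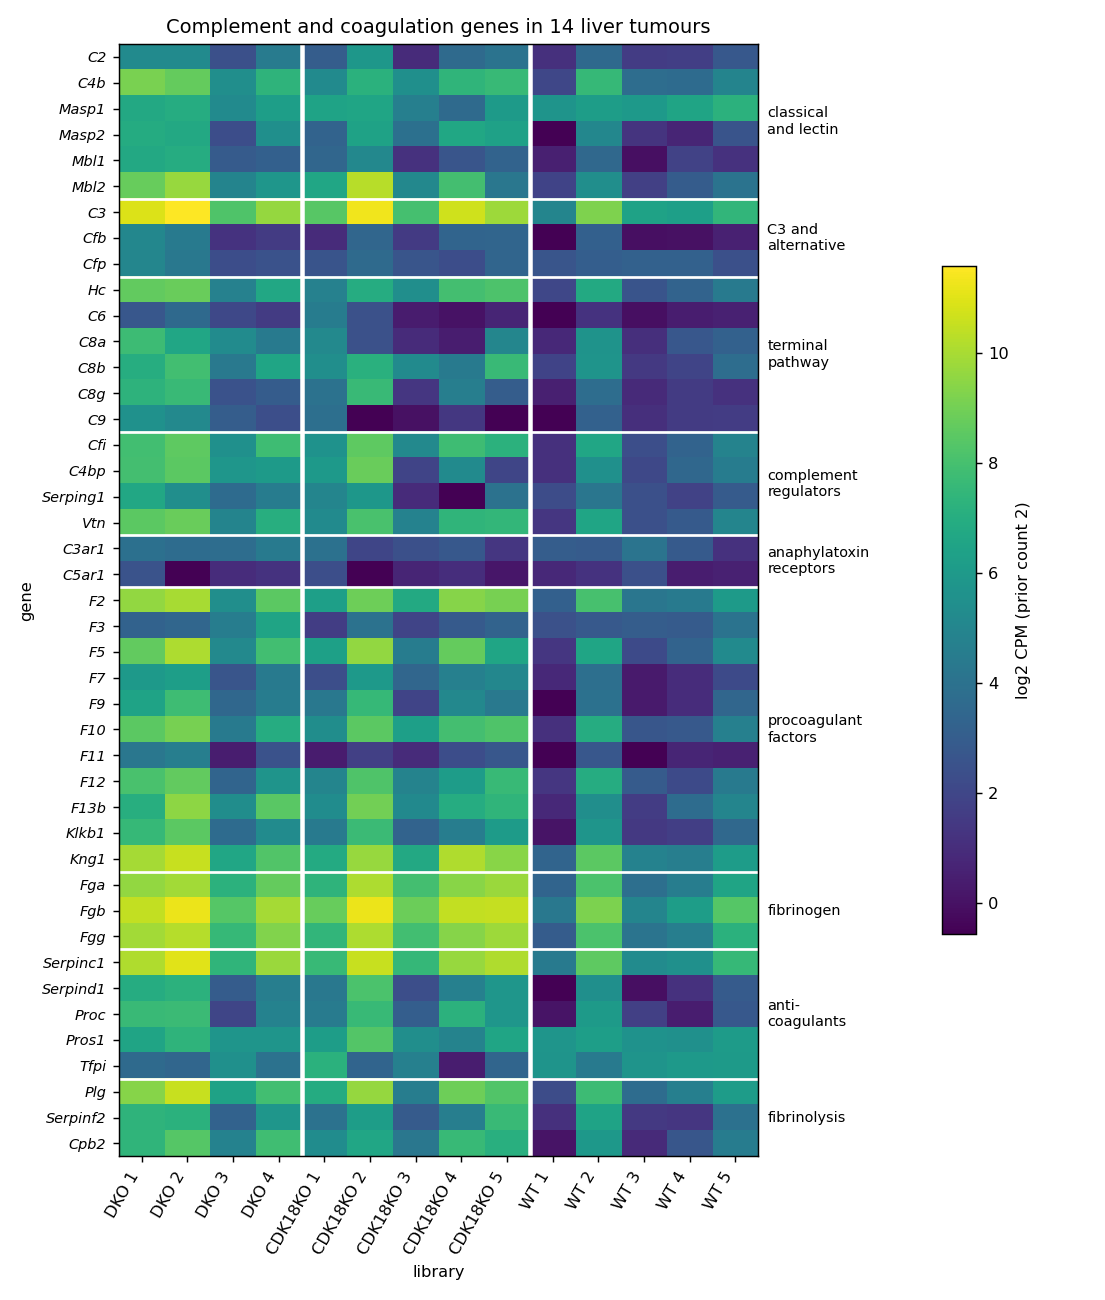
Log2 CPM (colour, prior count 2) of the 43 genes in rows, grouped by role, against the 14 libraries in columns, DKO left, CDK18KO in the middle and WT right. WT 2 resembles the knockout libraries more than it does WT 1, and Masp1, Pros1 and Tfpi keep their colour in WT libraries where most other genes are dark.

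No gene of the set passed edgeR's quasi-likelihood test at an adjusted p under 0.05 in any comparison. Of the 43 genes 42 passed the filter on low counts, C5ar1 being the exception, and 0 of 42 were called in DKO against WT, where 0.00714% of the 13997 genes tested were called. In CDK18KO against WT 0 of 42 were called, where 0.00714% of all genes were, and in DKO against CDK18KO 0 of 42, where 0% were. At an unadjusted p under 0.05 in the same fit, 33 of 42 were higher in DKO than in WT, against 13.7% of all genes, and 0 were lower, against 5.22%. In CDK18KO, 24 of 42 were higher than in WT at that level, against 11.6% of all genes, and 0 were lower, against 5.31%. All 24 were among the 33, and the 9 that reached the level in DKO only were C4b, C8a, C9, Cfb, F11, F3, Klkb1, Mbl1 and Serping1. Both counts share the WT libraries. Lists outside the set also stood higher at this level in DKO against WT: 17 of 19 hepatocyte markers, 9 of 10 acute phase genes, 5 of 5 erythroid genes and 3 of 3 B and plasma cell genes. So did 5 of 6 neutrophil and 4 of 8 macrophage markers, but 0 of 10 fibroblast and 0 of 6 cholangiocyte markers. In CDK18KO against WT the counts of genes higher were 14 hepatocyte markers, 3 acute phase genes and 0 in each of the other lists named. Lower in CDK18KO than in WT at this level were 5 of 10 fibroblast markers, 3 of 6 cholangiocyte markers and 1 of 5 erythroid genes. The part of these lists in the set's values was not tested beyond the hepatocyte list. Between DKO and CDK18KO, 4 of 42 were higher in DKO, against 3.94% of all genes, and 0 were lower, against 1.86%.

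Fold changes were large although the calls were missing. The median log2 fold change over the 42 genes was 2.91 for DKO against WT, beside -0.04 over all genes tested, with 41 genes above 0. It was 2.42 for CDK18KO against WT, beside -0.01, with 38 above 0, and 0.60 for DKO against CDK18KO, beside -0.02, with 37 above 0. Libraries of a group also differed widely: the SD of log2 CPM over libraries of a group had a median over the genes of 1.66 in DKO, 1.47 in CDK18KO and 1.90 in WT.

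DESeq2, run as an alternative, called 21 genes of the set higher in DKO than in WT at an adjusted p under 0.05, against 5.37% of the genes it tested, and 0 lower, against 0.933%. It called 10 higher in CDK18KO than in WT, against 3.56%, and 0 lower, against 1.96%, and all 10 were among the 21. These were Mbl2, C3, C8g, F5, F7, F13b, Fga, Fgb, Fgg and Serpinc1. Between DKO and CDK18KO it called 0 higher, against 0.692%, and 0 lower, against 0.0225%. Libraries without any overlap between groups were rare. Only C4bp and C6 had every DKO library above every WT library, 2 of 42 against 3.04% of all genes, and 0 had every DKO library below, against 2.46%. In CDK18KO against WT 0 of 42 were wholly above, against 1.1%, and 0 wholly below, against 1.6%, and for DKO against CDK18KO the counts were 0, against 0.872%, and 0, against 0.722%.

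The classical and lectin class ranged from Mbl2, with the largest fold change of the set against WT in both knockouts, to Masp1, near 0 in DKO. Mbl2, a mannose-binding lectin that recognises microbial sugars, had 435, 824, 29.1 and 55.6 CPM in DKO 1 to 4, 98.8, 1224, 33.2, 246 and 18.1 CPM in CDK18KO 1 to 5, and 2.97, 41.8, 2.62, 7.25 and 16.2 CPM in WT 1 to 5. WT 2 lay above DKO 3, CDK18KO 3 and CDK18KO 5, while the other WT libraries stood below all knockout libraries. Log2 fold changes were 4.54 (SE 1.33, edgeR adjusted p = 0.146) in DKO against WT and 4.49 (SE 1.31, edgeR adjusted p = 0.162) in CDK18KO against WT, and without CDK18KO 2 the log2 fold change in CDK18KO against WT was 2.73. Its paralog Mbl1 had 109, 123, 6.797 and 8.34 CPM in DKO 1 to 4, 10.3, 34.03, 1.55, 5.62 and 9.27 CPM in CDK18KO 1 to 5, and 0.742, 10.99, 0.291, 2.84 and 1.54 CPM in WT 1 to 5. Only DKO 1, DKO 2 and CDK18KO 2 stood above WT 2. The log2 fold change of Mbl1 was 4.1 (SE 1.11, edgeR adjusted p = 0.146) in DKO against WT, 1.73 (SE 1.02, edgeR adjusted p = 0.404) in CDK18KO against WT and 2.36 (SE 1.04, edgeR adjusted p = 0.804) in DKO against CDK18KO.

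C4b, the C4 gene whose product joins C2 in the C3 convertase of the classical and lectin pathways, had 559, 414, 42.1 and 158 CPM in DKO 1 to 4, 37.6, 144, 43.2, 167 and 195 CPM in CDK18KO 1 to 5, and 3.34, 189.99, 13.1, 11.97 and 29.3 CPM in WT 1 to 5. WT 2 stood above DKO 3, DKO 4 and all CDK18KO libraries but CDK18KO 5. In the edgeR fit, log2 fold changes were 2.55 (SE 1.0, edgeR adjusted p = 0.188) in DKO against WT and 1.32 (SE 0.97, edgeR adjusted p = 0.993) in DKO against CDK18KO, where it was 0.80 without DKO 1. C4b shares sequence with its near-identical neighbour C4a, so its counts are uncertain. C2 ranged over 4.53 to 37.7 CPM in DKO, 1.24 to 56.9 CPM in CDK18KO and 1.48 to 11.1 CPM in WT.

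The genes of the MASP proteases, which act once a lectin has bound, differed in pattern. Masp2 ranged over 4.21 to 120.0 CPM in DKO, 9.01 to 100.4 CPM in CDK18KO and 0 to 32.1 CPM in WT, where 0 counts in WT 1 allow up to 1.11 CPM. Masp1, picked out after its values were seen, had 108, 123, 37.2 and 75.02 CPM in DKO 1 to 4, 89.1, 93.1, 25.2, 11.6 and 64.9 CPM in CDK18KO 1 to 5, and 52.3, 71.8, 63.7, 91.7 and 149 CPM in WT 1 to 5. WT 5 was the highest library and CDK18KO 4 the lowest, and WT 1, which was lowest for Masp2, was within the range of DKO. The log2 fold change of Masp1 was 0.01 (SE 0.54, edgeR adjusted p = 0.994) in DKO against WT and -0.59 (SE 0.51, edgeR adjusted p = 0.5797) in CDK18KO against WT.

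C3, where all 3 routes of complement activation meet, was among the most abundant genes of the set. It had 1932, 3045, 296 and 817 CPM in DKO 1 to 4, 345, 2564, 253, 1656 and 895 CPM in CDK18KO 1 to 5, and 30.04, 605, 84.7, 78.1 and 173 CPM in WT 1 to 5. Among WT tumours WT 2 exceeded DKO 3, CDK18KO 1 and CDK18KO 3, and the other WT libraries stood below all knockout libraries. On the log2 scale the fold change was 2.97 (SE 0.91, edgeR adjusted p = 0.146) in DKO against WT and 2.55 (SE 0.87, edgeR adjusted p = 0.179) in CDK18KO against WT. Cfb, the protease of the alternative pathway, ranged over 1.62 to 32.9 CPM in DKO, 1.24 to 10.1 CPM in CDK18KO and 0 to 8.11 CPM in WT.

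Cfp encodes properdin, which stabilises the alternative C3 convertase and is made mainly by myeloid cells. It had 31.7, 19.2, 4.21 and 5.002 CPM in DKO 1 to 4, 5.28, 11.7, 5.59, 4.29 and 9.73 CPM in CDK18KO 1 to 5, and 5.56, 7.56, 8.44, 8.51 and 4.63 CPM in WT 1 to 5. DKO 1 and DKO 2 were the highest libraries, and DKO 3 was below every WT library. The log2 fold change in DKO against CDK18KO was 1.05 (SE 0.56, edgeR adjusted p = 0.921), and without DKO 1 it was 0.37. Summed neutrophil markers stood at 373 to 547 CPM in DKO, 5.59 to 92.7 CPM in CDK18KO and 43.7 to 282 CPM in WT, with Ly6g at 0 throughout CDK18KO, and their part in the Cfp values was not tested.

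The terminal pathway, which builds the membrane pore, held genes of differing patterns. Hc, the mouse gene for C5, had 402, 438, 26.2 and 103 CPM in DKO 1 to 4, 26.4, 122, 42.5, 247 and 286 CPM in CDK18KO 1 to 5, and 3.34, 111, 5.24, 9.14 and 20.8 CPM in WT 1 to 5. Its order of libraries was close to that of C3, with WT 2 above DKO 3, DKO 4, CDK18KO 1 and CDK18KO 3 and the other WT libraries below all knockout libraries. Fold changes on the log2 scale were 2.99 (SE 1.07, edgeR adjusted p = 0.1605) in DKO against WT and 2.25 (SE 1.01, edgeR adjusted p = 0.275) in CDK18KO against WT.

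C8 is a complex of an α, a β and a γ chain, and their transcripts did not keep a fixed proportion. C8g, for the γ chain, had 156, 200.01, 4.85 and 7.22 CPM in DKO 1 to 4, 15.2, 201, 1.86, 23.8 and 7.41 CPM in CDK18KO 1 to 5, and 0.742, 13.1, 1.16, 2.21 and 1.54 CPM in WT 1 to 5. CDK18KO 2, DKO 1 and DKO 2 stood far above the rest, and WT 2 was above DKO 3, DKO 4, CDK18KO 3 and CDK18KO 5. For C8g the log2 fold change was 4.48 (SE 1.41, edgeR adjusted p = 0.146) in DKO against WT and 3.58 (SE 1.33, edgeR adjusted p = 0.205) in CDK18KO against WT. C8a, for the α chain, had 218, 97.5, 38.5 and 20.01 CPM in DKO 1 to 4, 34.8, 4.79, 1.24, 0.661 and 31.05 CPM in CDK18KO 1 to 5, and 1.11, 49.5, 1.46, 5.99 and 8.49 CPM in WT 1 to 5. WT 2 lay above every CDK18KO library and above DKO 3 and DKO 4, and CDK18KO 4 was the lowest of all 14. Fitted log2 fold changes were 2.77 (SE 1.19, edgeR adjusted p = 0.227) in DKO against WT, 0.08 (SE 1.11, edgeR adjusted p = 0.975) in CDK18KO against WT and 2.69 (SE 1.2, edgeR adjusted p = 0.818) in DKO against CDK18KO.

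C8b, for the β chain, lies beside C8a on chromosome 4 (C8b at 104766317 to 104804548 on the plus strand, C8a at 104815679 to 104876398 on the minus strand, GENCODE M21 on GRCm38). It ranged over 19.7 to 235 CPM in DKO, 21.1 to 199 CPM in CDK18KO and 2.04 to 51.8 CPM in WT. The log2 ratio of C8a to C8b was 0.76, -1.26, 0.94 and -2.20 in DKO 1 to 4, and -0.29, -4.67, -4.31, -4.03 and -2.65 in CDK18KO 1 to 5. In the 3 WT libraries with at least 20 counts of the pair it was -0.07 in WT 2, 0.80 in WT 4 and -0.59 in WT 5. CDK18KO 2 to 5 were thus below all other libraries used, and CDK18KO 1 was not. The mean ratio differed by -3.24 in CDK18KO against WT (exact permutation p = 0.0536, two-sided, smallest possible 0.0179) and by 2.75 in DKO against CDK18KO (exact permutation p = 0.0556), and both had an adjusted p of 0.211 over 19 ratio tests.

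C9, whose product polymerises into the pore wall, had 46.3, 34.9, 7.44 and 4.45 CPM in DKO 1 to 4, 13.7, 0, 0.311, 1.98 and 0 CPM in CDK18KO 1 to 5, and 0, 8.52, 1.46, 2.21 and 2.31 CPM in WT 1 to 5. The 0 counts in CDK18KO 2 allow up to 1.595 CPM and those in CDK18KO 5 up to 1.39 CPM, whereas every DKO library stood above CDK18KO 2 to 5. WT 2 stood above DKO 3 and DKO 4. Log2 fold changes were 2.8 (SE 1.24, edgeR adjusted p = 0.804) in DKO against CDK18KO and 2.91 (SE 1.24, edgeR adjusted p = 0.218) in DKO against WT, and it was 5.11 in DKO against CDK18KO without CDK18KO 1. C6, another pore component, picked out after its values were seen, had 6.00, 11.3, 3.56 and 2.22 CPM in DKO 1 to 4, 22.4, 4.79, 0.621, 0.3303 and 0.927 CPM in CDK18KO 1 to 5, and 0, 1.65, 0.291, 0.6302 and 0.771 CPM in WT 1 to 5. All 4 DKO libraries stood above all WT libraries, but at low levels, and CDK18KO 1 was the highest of the 14 while CDK18KO 3 to 5 lay within the WT range. In the edgeR fit, log2 fold changes were 2.9 (SE 1.13, edgeR adjusted p = 0.184) in DKO against WT and 2.94 (SE 1.09, edgeR adjusted p = 0.204) in CDK18KO against WT, and without CDK18KO 1, WT 3 and WT 5, the libraries high in Y-linked counts, the C6 value in CDK18KO against WT was 0.79 (edgeR adjusted p = 0.742).

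**Figure D2:**
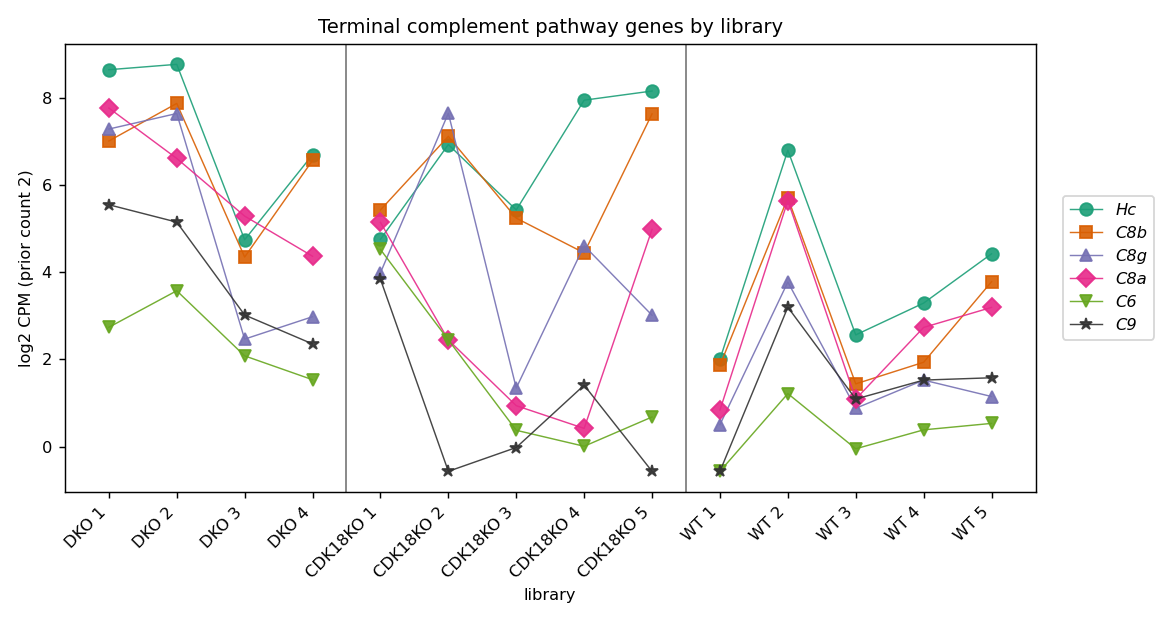
Log2 CPM (prior count 2) of 6 terminal pathway genes by library, DKO left, CDK18KO in the middle, WT right, with lines joining the libraries of a group only to guide the eye. C8a (diamonds) lies close to C8b (squares) in WT 2 and CDK18KO 1 and far below it in CDK18KO 2 to 4, and C9 (stars) is at 0 counts in CDK18KO 2, CDK18KO 5 and WT 1.

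Among complement regulators, Cfi, the protease that inactivates C3b and C4b, had 239, 377, 44.7 and 219.5 CPM in DKO 1 to 4, 48.5, 382, 34.5, 223 and 147 CPM in CDK18KO 1 to 5, and 1.48, 96.9, 4.37, 9.14 and 28.5 CPM in WT 1 to 5. Among WT tumours WT 2 exceeded DKO 3, CDK18KO 1 and CDK18KO 3, and the remaining WT libraries stood below all knockout libraries. On the log2 scale the fold change was 2.95 (SE 1.01, edgeR adjusted p = 0.154) in DKO against WT and 2.55 (SE 0.97, edgeR adjusted p = 0.211) in CDK18KO against WT. C4bp, which helps Cfi degrade C4b and was picked out after its values were seen, had 244, 367, 55.3 and 66.1 CPM in DKO 1 to 4, 63.4, 447, 3.11, 36.7 and 3.24 CPM in CDK18KO 1 to 5, and 1.48, 45.9, 3.49, 10.7 and 22.4 CPM in WT 1 to 5. Every DKO library was above every WT library, and CDK18KO values were spread widely, with CDK18KO 3 and CDK18KO 5 as low as WT 3. Fold changes on the log2 scale were 3.43 (SE 1.29, edgeR adjusted p = 0.175) in DKO against WT and 2.7 (SE 1.23, edgeR adjusted p = 0.283) in CDK18KO against WT.

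Vtn, for vitronectin, which blocks the terminal complex, ranged over 29.5 to 446 CPM in DKO, 27.0 to 273 CPM in CDK18KO and 1.85 to 95.1 CPM in WT. Serping1, for the C1 inhibitor, was also picked out after its values were seen. It had 103, 42.3, 11.98 and 22.2 CPM in DKO 1 to 4, 30.1, 57.4, 1.24, 0 and 15.3 CPM in CDK18KO 1 to 5, and 4.08, 17.9, 4.66, 2.84 and 6.94 CPM in WT 1 to 5. The 0 counts in CDK18KO 4 allow up to 0.991 CPM, below every WT library, although that library had 1656 CPM of C3. The log2 fold change of Serping1 was 2.6 (SE 1.09, edgeR adjusted p = 0.212) in DKO against WT and 1.47 (SE 1.03, edgeR adjusted p = 0.488) in CDK18KO against WT.

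The anaphylatoxin receptors sit on myeloid cells rather than hepatocytes. C3ar1, the receptor for C3a, had 14.6, 12.4, 12.9 and 20.6 CPM in DKO 1 to 4, 14.9, 3.19, 4.66, 6.28 and 1.85 CPM in CDK18KO 1 to 5, and 7.42, 6.87, 16.3, 6.62 and 1.54 CPM in WT 1 to 5. DKO values were close to each other, CDK18KO 1 resembled them, and WT 3 stood above DKO 1, DKO 2 and DKO 3. Fitted log2 fold changes were 1.27 (SE 0.6, edgeR adjusted p = 0.8802) in DKO against CDK18KO and 0.94 (SE 0.6, edgeR adjusted p = 0.406) in DKO against WT. Summed macrophage markers stood at 120.1 to 837 CPM in DKO, 64.7 to 235 CPM in CDK18KO and 64.1 to 267 CPM in WT, none of the 10 was at 0 in a whole group, and their part was not tested. C5ar1, for C5a, was at most 5.14 CPM in DKO, 4.35 CPM in CDK18KO and 4.66 CPM in WT and was not tested.

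In coagulation, Kng1, which encodes kininogen of the contact system, had the highest mean level among the initiating and procoagulant factors. It had 978, 1490.2, 98.1 and 307 CPM in DKO 1 to 4, 115, 843, 106, 1111 and 675 CPM in CDK18KO 1 to 5, and 9.64, 367, 27.1, 24.3 and 69.4 CPM in WT 1 to 5. WT 2 lay above DKO 3, DKO 4, CDK18KO 1 and CDK18KO 3, and the other WT libraries stood below all knockout libraries. Log2 fold changes were 2.85 (SE 1.06, edgeR adjusted p = 0.172) in DKO against WT and 2.51 (SE 1.02, edgeR adjusted p = 0.234) in CDK18KO against WT.

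F13b, the carrier subunit of the enzyme that crosslinks fibrin, had the smallest unadjusted edgeR p of the set in DKO against WT, 0.00213. It had 131, 717, 40.8 and 350.1 CPM in DKO 1 to 4, 40.1, 508, 36.02, 122 and 163 CPM in CDK18KO 1 to 5, and 1.11, 43.1, 2.33, 12.6 and 30.9 CPM in WT 1 to 5. Only WT 2 reached the knockout range, above DKO 3, CDK18KO 1 and CDK18KO 3. In the edgeR fit, log2 fold changes were 4.1 (SE 1.1, edgeR adjusted p = 0.146) in DKO against WT and 3.27 (SE 1.04, edgeR adjusted p = 0.168) in CDK18KO against WT. F7, the protease that tissue factor activates, had 61.4, 74.4, 5.502 and 20.01 CPM in DKO 1 to 4, 4.35, 61.2, 10.2, 25.8 and 31.97 CPM in CDK18KO 1 to 5, and 1.11, 13.9, 0.582, 1.26 and 3.86 CPM in WT 1 to 5. WT 2 again stood above DKO 3, CDK18KO 1 and CDK18KO 3. Its log2 fold change was 3.19 (SE 0.97, edgeR adjusted p = 0.146) in DKO against WT and 2.59 (SE 0.93, edgeR adjusted p = 0.193) in CDK18KO against WT.

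F11, a protease of the intrinsic route, had 18.0, 23.7, 0.647 and 5.002 CPM in DKO 1 to 4, 0.621, 2.66, 1.24, 4.29 and 6.02 CPM in CDK18KO 1 to 5, and 0, 5.91, 0, 0.945 and 0.771 CPM in WT 1 to 5. DKO 3 was lower than WT 2, WT 4 and WT 5, so the high DKO mean rested on DKO 1 and DKO 2. For F11 the log2 fold change was 2.0 (SE 1.1, edgeR adjusted p = 0.934) in DKO against CDK18KO. Of the other hepatocyte factors, prothrombin (F2) ranged over 42.4 to 1016 CPM in DKO, 77.0 to 668 CPM in CDK18KO and 8.16 to 266 CPM in WT. The cofactor F5 ranged over 35.3 to 1064 CPM in DKO, 22.4 to 769 CPM in CDK18KO and 1.85 to 94.4 CPM in WT. F9, F10, F12 and Klkb1, which are proteases or protease precursors of the cascade, had log2 fold changes of 3.95, 3.01, 2.52 and 3.4 in DKO against WT, and of 3.26, 2.66, 1.97 and 2.2 in CDK18KO against WT.

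F3 encodes tissue factor, the membrane protein that starts coagulation and is made largely by cells other than hepatocytes. It had 8.86, 10.1, 22.98 and 90.03 CPM in DKO 1 to 4, 2.48, 15.4, 3.11, 6.61 and 9.27 CPM in CDK18KO 1 to 5, and 4.82, 6.32, 7.28, 6.93 and 16.2 CPM in WT 1 to 5. DKO 4 and DKO 3 stood above all other libraries, while DKO 1 and DKO 2, which were among the highest for most genes of the set, lay within the ranges of both other groups. On the log2 scale the fold change was 2.17 (SE 0.71, edgeR adjusted p = 0.516) in DKO against CDK18KO and 2.01 (SE 0.71, edgeR adjusted p = 0.158) in DKO against WT. Without DKO 4 it was 0.94 in DKO against CDK18KO.

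The fibrinogen chains lie within 1 cluster on chromosome 3 (Fgg at 83007724 to 83015049 and Fga at 83026076 to 83033627 on the plus strand, Fgb at 83040141 to 83049863 on the minus strand, GENCODE M21 on GRCm38). They are joined into 1 protein of paired α, β and γ chains. Fgb, for the β chain, had 1385, 2343, 333 and 973 CPM in DKO 1 to 4, 434, 2344, 461, 1383 and 1457 CPM in CDK18KO 1 to 5, and 18.9, 576, 30.9, 71.2 and 332 CPM in WT 1 to 5. Fga, for the α chain, had 776, 961, 148 and 415 CPM in DKO 1 to 4, 161, 1095, 243, 693 and 848 CPM in CDK18KO 1 to 5, and 9.64, 278, 13.7, 23.3 and 91.03 CPM in WT 1 to 5. Fgg, for the γ chain, had 947, 1211, 191 and 619 CPM in DKO 1 to 4, 169, 1067, 234, 662 and 882 CPM in CDK18KO 1 to 5, and 7.05, 281, 16.6, 23.9 and 143 CPM in WT 1 to 5. For each chain WT 2 stood above DKO 3, CDK18KO 1 and CDK18KO 3, and the 4 other WT libraries stood below all knockout libraries, for Fgb by as little as 332 CPM in WT 5 beside 333 CPM in DKO 3.

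In DKO against WT the log2 fold change was 2.61 (SE 0.9, edgeR adjusted p = 0.154) for Fgb, 2.78 (SE 0.92, edgeR adjusted p = 0.149) for Fga and 2.97 (SE 0.94, edgeR adjusted p = 0.146) for Fgg. In CDK18KO against WT it was 2.56 (SE 0.87, edgeR adjusted p = 0.179) for Fgb, 2.86 (SE 0.9, edgeR adjusted p = 0.167) for Fga and 2.67 (SE 0.9, edgeR adjusted p = 0.177) for Fgg. DKO and CDK18KO differed by log2 fold changes of 0.05, -0.08 and 0.3 for the same chains. The log2 ratio of Fgg to Fgb averaged -0.74 ± 0.18 in DKO (SD, n = 4), -1.05 ± 0.23 in CDK18KO (n = 5) and -1.2 ± 0.26 in WT (n = 5), and the exact permutation test gave p = 0.0317 for DKO against WT, 0.211 once adjusted. By library this ratio ran from -0.95 to -0.55 in DKO, -1.36 to -0.72 in CDK18KO and -1.55 to -0.87 in WT. The log2 ratio of Fga to Fgb ran from -1.29 to -0.83 in DKO, -1.43 to -0.78 in CDK18KO and -1.86 to -0.93 in WT. Over the same libraries the Fgb level ran from 18.9 to 2344 CPM.

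Because the chains are joined in 1 protein and share a cluster, their promoter windows are shown, with that of F13b, which had the smallest p of the set in DKO against WT. Each runs from 250 bases before to 50 bases after the transcription start in RefSeq (GRCm38.p6): Fga at chr3:83025903-83026202 (plus strand), Fgb at chr3:83049814-83050113 (minus strand), Fgg at chr3:83007474-83007773 (plus strand) and F13b at chr1:139501457-139501756 (plus strand). Capitals mark the letters GTTAAT, a core of the motif of the liver factor HNF1, and TTGCNNAA, the core of the C/EBP motif, on either strand.
Fga: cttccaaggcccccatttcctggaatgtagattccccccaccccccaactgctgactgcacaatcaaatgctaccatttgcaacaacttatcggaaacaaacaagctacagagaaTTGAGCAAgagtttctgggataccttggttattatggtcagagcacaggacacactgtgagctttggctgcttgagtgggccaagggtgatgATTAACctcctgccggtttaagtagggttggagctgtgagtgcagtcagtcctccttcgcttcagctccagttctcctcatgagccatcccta
Fgb: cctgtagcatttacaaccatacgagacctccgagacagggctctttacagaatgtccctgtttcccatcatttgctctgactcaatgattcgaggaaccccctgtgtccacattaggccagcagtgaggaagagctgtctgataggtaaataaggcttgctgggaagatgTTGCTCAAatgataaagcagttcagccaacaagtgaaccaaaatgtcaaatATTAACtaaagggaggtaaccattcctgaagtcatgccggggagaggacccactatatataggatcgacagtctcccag
Fgg: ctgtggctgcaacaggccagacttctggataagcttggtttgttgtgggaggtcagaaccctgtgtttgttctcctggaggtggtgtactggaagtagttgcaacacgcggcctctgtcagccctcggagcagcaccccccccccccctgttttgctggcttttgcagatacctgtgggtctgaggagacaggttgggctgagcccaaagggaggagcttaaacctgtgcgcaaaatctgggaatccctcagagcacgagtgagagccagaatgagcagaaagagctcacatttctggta
F13b: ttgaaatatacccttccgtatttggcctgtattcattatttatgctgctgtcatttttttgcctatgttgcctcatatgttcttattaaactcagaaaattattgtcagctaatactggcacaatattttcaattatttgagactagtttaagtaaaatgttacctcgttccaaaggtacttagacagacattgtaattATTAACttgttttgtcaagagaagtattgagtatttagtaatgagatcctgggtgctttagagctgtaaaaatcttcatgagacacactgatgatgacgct
The HNF1 letters began 43 bases before the start in Fga, 29 in Fgb and 51 in F13b, and the C/EBP letters 135 bases before it in Fga and 80 in Fgb. Neither was present in the Fgg window.

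Over the set, 34 of 43 genes matched a RefSeq promoter, giving 36 windows. The HNF1 letters were in 10 of 36 windows (27.8%), against 7.1% of all 32851 promoter windows of the same length, and the C/EBP letters in 9 (25%), against 10.8%. TTCNNNGAA, a STAT motif, was in 7 (19.4%), against 8.3%, TATAAA in 7 (19.4%), against 13.6%, and CAAAGTCC, an HNF4 motif, in 0, against 1.42%. In the 19 windows of the hepatocyte markers the shares were 10.5% for HNF1, 36.8% for C/EBP, 10.5% for STAT and 26.3% for TATAAA. The HNF4 letters were in 1 of the 19 (5.26%). C/EBP, TATAAA and HNF4 were thus more frequent there than in the set, HNF4 by 1 window only. No 2 of these motifs overlapped in a window of the set. The HNF1 letters were also present in C8a and C8b, which differed in CDK18KO libraries, and in Cfp. C2, C4b, Cfb, Cfi, Kng1, Masp1, Plg, Proc and Serping1 had no match.

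Serpinc1, for antithrombin, was the most abundant anticoagulant. It had 1109, 2085, 168 and 845 CPM in DKO 1 to 4, 197, 1516, 183, 835 and 1119.5 CPM in CDK18KO 1 to 5, and 20.4, 382, 38.7, 44.7 and 187 CPM in WT 1 to 5. WT 2 stood above DKO 3, CDK18KO 1 and CDK18KO 3, and WT 5 above DKO 3 and CDK18KO 3. Fold changes on the log2 scale were 2.96 (SE 0.92, edgeR adjusted p = 0.146) in DKO against WT and 2.51 (SE 0.88, edgeR adjusted p = 0.187) in CDK18KO against WT. Serpind1, for heparin cofactor II, and Proc, for protein C, had wider spread, with log2 fold changes of 2.79 (SE 1.39, edgeR adjusted p = 0.292) and 2.79 (SE 1.36, edgeR adjusted p = 0.282) in DKO against WT.

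Pros1 and Tfpi, both picked out after their values were seen, did not follow Serpinc1. Pros1, for protein S, the cofactor of protein C that endothelium also makes, had 90.9, 161, 54.4 and 54.5 CPM in DKO 1 to 4, 72.7, 315, 41.9, 28.4 and 93.1 CPM in CDK18KO 1 to 5, and 53.8, 75.01, 48.6, 44.7 and 68.7 CPM in WT 1 to 5. CDK18KO 2 was highest and CDK18KO 4 lowest, and the DKO and WT ranges overlapped over most of their length. Tfpi, the inhibitor of tissue factor that endothelium and other non-hepatocyte cells make, had 11.7, 10.1, 45.3 and 15.6 CPM in DKO 1 to 4, 143, 9.57, 25.5, 0.661 and 9.73 CPM in CDK18KO 1 to 5, and 51.9, 21.2, 52.1, 61.1 and 66.3 CPM in WT 1 to 5. CDK18KO 1 was the highest library and CDK18KO 4 the lowest, 4 WT libraries stood above all DKO libraries, and WT 2 stood below DKO 3. The log2 fold change of Tfpi was -1.27 (SE 0.97, edgeR adjusted p = 0.4899) in DKO against WT and -0.41 (SE 0.88, edgeR adjusted p = 0.8403) in CDK18KO against WT, and that of Pros1 was 0.63 (SE 0.58, edgeR adjusted p = 0.566) and 0.92 (SE 0.55, edgeR adjusted p = 0.414). Without the libraries high in Y-linked counts, CDK18KO 1 among them, Tfpi was at -1.97 (edgeR adjusted p = 0.338) in CDK18KO against WT.

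Masp1, Pros1 and Tfpi together made up 1.34% to 6.67% of the set's counts in DKO, with a median of 1.78%. In CDK18KO they made up 0.401% to 10.96%, with a median of 2.40%, and in WT 3.60% to 49.3%, with a median of 30.1%. In WT 1 Pros1 was the most abundant of the 43 genes and in WT 4 Masp1 was. C3 led in WT 2 and WT 3, Fgb led in WT 5, and C3 or Fgb led in each of the 9 knockout libraries. CDK18KO 4, lowest of the 14 libraries for Masp1, Pros1, Tfpi, Serping1 and C8a, also had the lowest sums of the fibroblast, endothelial and cholangiocyte marker lists, at 46.9, 29.4 and 34.0 CPM. Over libraries the fibroblast sum was 464 to 1198 CPM in DKO, 46.9 to 912 CPM in CDK18KO and 444 to 1264 CPM in WT, none of its 10 genes was at 0 in a group, and its part in these genes was not tested.

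Of the fibrinolysis genes, Plg, for plasminogen, the precursor of the protease that dissolves fibrin, had 666, 1489, 86.1 and 234 CPM in DKO 1 to 4, 119.9, 809, 23.3, 475 and 306 CPM in CDK18KO 1 to 5, and 4.08, 212, 12.5, 24.6 and 69.4 CPM in WT 1 to 5. Among WT tumours WT 2 exceeded DKO 3, CDK18KO 1 and CDK18KO 3, and CDK18KO 3 was within the WT range. Fitted log2 fold changes were 3.25 (SE 1.13, edgeR adjusted p = 0.156) in DKO against WT and 2.42 (SE 1.07, edgeR adjusted p = 0.2696) in CDK18KO against WT. Serpinf2, for the plasmin inhibitor α2-antiplasmin, and Cpb2, for the carboxypeptidase that protects fibrin, had log2 fold changes of 2.06 (SE 1.23, edgeR adjusted p = 0.374) and 3.38 (SE 1.09, edgeR adjusted p = 0.147) in DKO against WT.

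**Figure D3:**
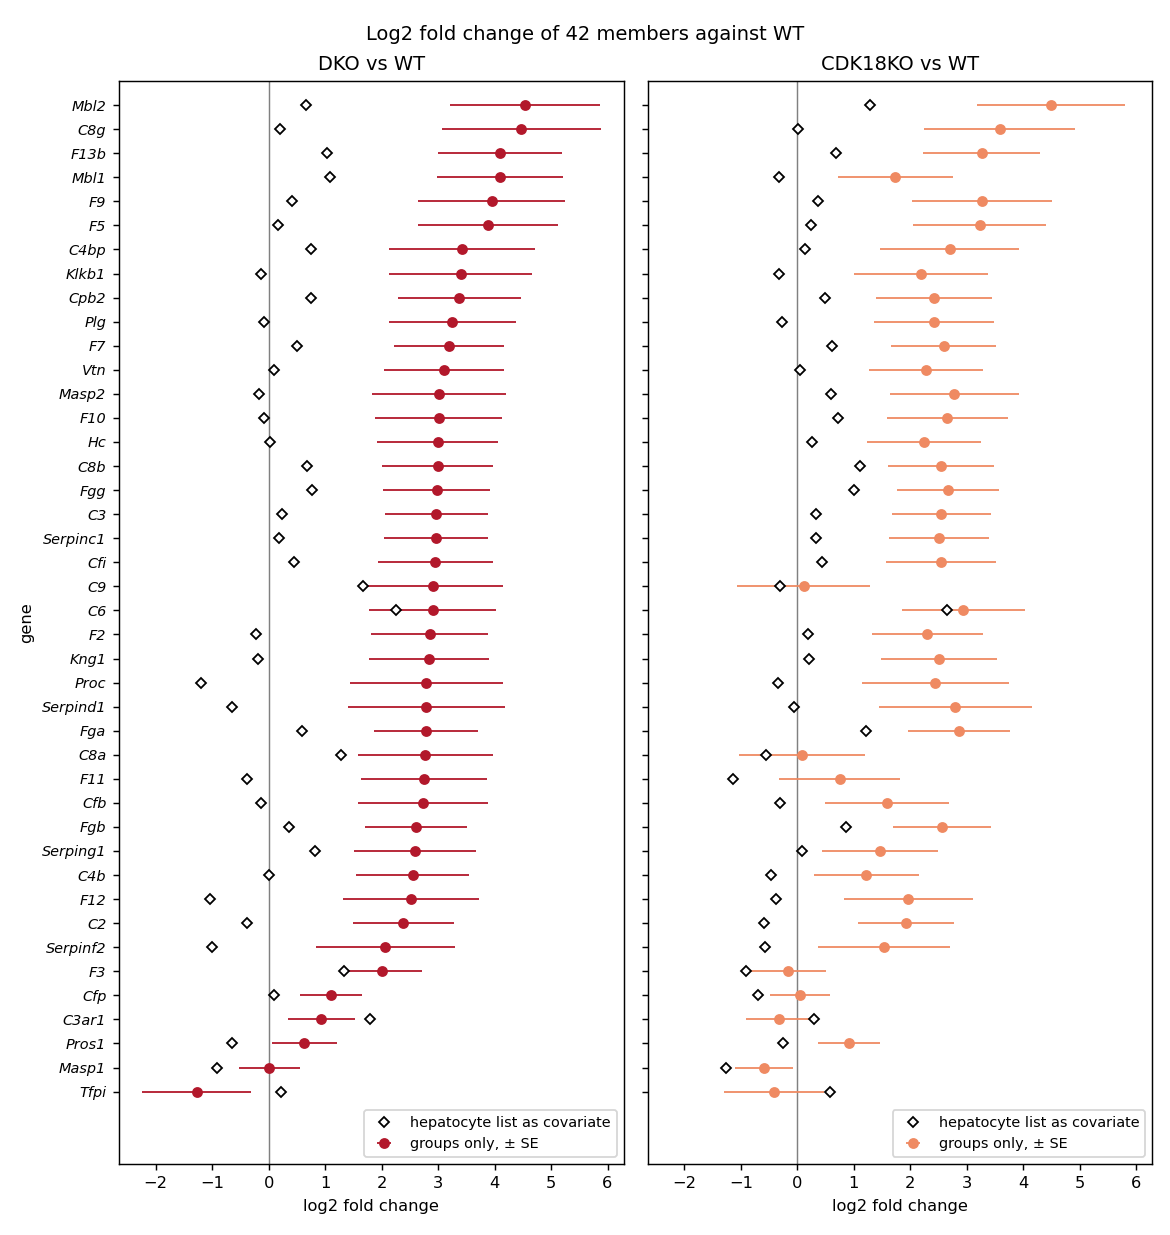
Log2 fold change of the 42 genes tested, DKO against WT on the left and CDK18KO against WT on the right, as filled points with SE bars and, as open diamonds, with the hepatocyte marker level as a covariate. Most filled points lie between 2 and 4.5 in DKO, while the open diamonds centre near 0, with a median of 0.19 in DKO against WT and 0.16 in CDK18KO against WT.

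Most genes of the set followed the general level of hepatocyte transcripts within groups. With group means removed, log2 CPM was correlated over 14 libraries with the log2 mean CPM of the 19 hepatocyte markers, none of which belongs to the set. Libraries share depth and scaling across both measures. For 33 of 43 genes both Pearson's r and Spearman's rho were positive with an adjusted permutation p under 0.05 over the 43 relations. For 23 r was over 0.9. The relation was not computed over all genes, so whether these counts are particular to the set was not tested. Vtn had r = 0.990 and rho = 0.978 (permutation p = 1e-05 for both, the smallest possible, adjusted 4.3e-05 and 4.78e-05), and r was 0.986 without DKO 3 and WT 2, the libraries farthest from the median. For Serpinc1 r was 0.985, for Cfi 0.982 and for C3 0.973.

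The genes that did not follow it were Masp1, Cfp, C6, C8a, C9, Serping1, C3ar1, C5ar1 and F3, with r between -0.42 and 0.48. The 3 terminal genes C6, C8a and C9 had r of 0.27, 0.48 and 0.35, against 0.915 for Hc, 0.817 for C8b and 0.777 for C8g. Tfpi was the 1 gene with a negative relation, r = -0.56 (permutation p = 0.0149, adjusted 0.0194) and rho = -0.73 (permutation p = 0.00537, adjusted 0.00722), and r was -0.49 without DKO 3 and WT 2. Pros1 had r = 0.53 (permutation p = 0.0329, adjusted 0.0416).

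**Figure D4:**
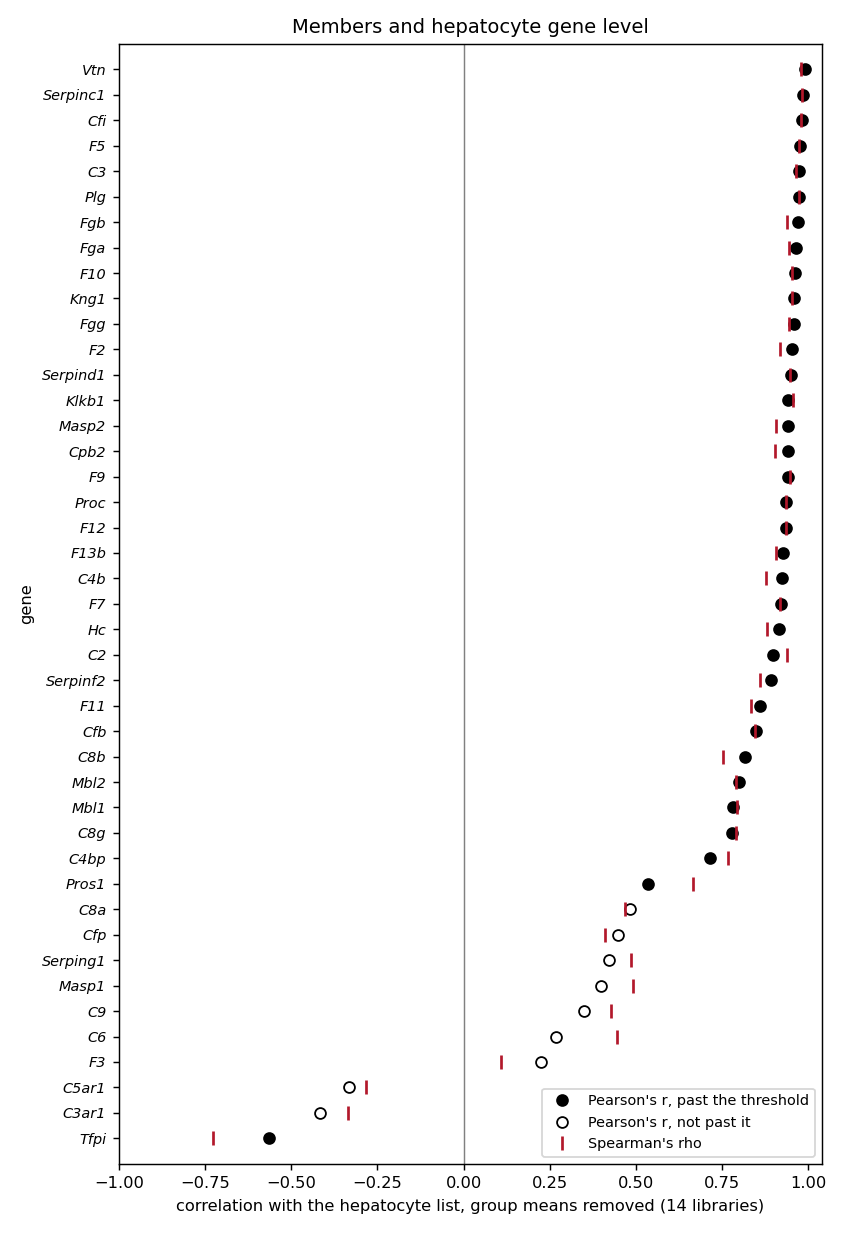
Correlation over 14 libraries of each gene's log2 CPM with the hepatocyte marker level, group means removed, with Pearson's r as points (filled where both adjusted permutation p values are under 0.05) and Spearman's rho as red ticks. Genes run down the page from Vtn at 0.990 to Tfpi at -0.56.

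**Figure D5:**
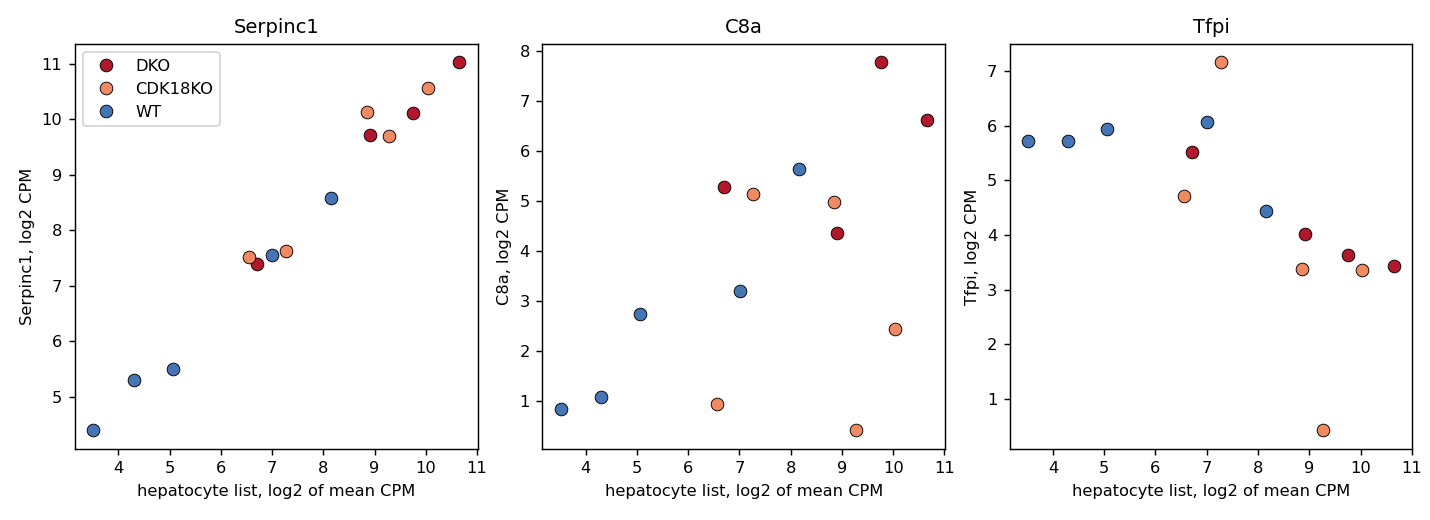
Log2 CPM of Serpinc1, C8a and Tfpi (prior count 2) against the log2 mean CPM of the hepatocyte markers, 1 point per library, coloured by group. Serpinc1 lies along a line in all groups, C8a falls below the trend in CDK18KO 2, CDK18KO 3 and CDK18KO 4, and Tfpi is lowest in libraries with a high hepatocyte level.

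With that hepatocyte level as a covariate in the edgeR fit, the median log2 fold change of the 42 genes was 0.19 in DKO against WT and 0.16 in CDK18KO against WT. At an unadjusted p under 0.05, the 1 gene in DKO against WT was C3ar1 at a log2 fold change of 1.79, which was not among the 33 without the covariate. In CDK18KO against WT there were 4, all among the earlier 24: Fga at 1.22 (edgeR adjusted p = 0.613), Fgb at 0.87, Fgg at 1.0 and C6 at 2.65. In DKO against CDK18KO they were Mbl1 at 1.42, C3ar1 at 1.5 and F3 at 2.24, and no gene passed after adjustment. Shares over all genes were not counted in this fit. The covariate differs between the groups itself, so this fit describes levels relative to other hepatocyte transcripts and does not separate a change of cells from a change within them.

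Ratios within a library were tested for 7 pairs of subunits or paralogs, and 0 of 19 tests passed adjustment, the smallest adjusted p being 0.211. The log2 ratio of Masp1 to Masp2 averaged 0.95 ± 1.4 in DKO (SD, n = 4), 0.14 ± 2.25 in CDK18KO (n = 5) and 4.53 ± 2.02 in WT (n = 5). It differed by -3.58 in DKO against WT (exact permutation p = 0.0397, two-sided) and by -4.39 in CDK18KO against WT (exact permutation p = 0.0159), with adjusted p of 0.211 for both. Masp2 had only 0, 6, 3 and 7 counts in WT 1, WT 3, WT 4 and WT 5. The size of the ratio in these libraries therefore depends on the prior count. The ratio of Mbl1 to Mbl2 averaged -2.34 ± 0.40 in DKO, -3.69 ± 1.78 in CDK18KO and -1.99 ± 0.88 in the 3 WT libraries with enough counts, and no comparison had an exact permutation p under 0.167.

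Single libraries bore on the counts above. Counts in these refits take genes in either direction, and shares over all genes were not counted in them. At an unadjusted p under 0.05 the count in DKO against WT was 20 without DKO 2 and 37 without WT 2. In CDK18KO against WT it was 9 without CDK18KO 2, 33 without WT 2, and 14 without any 1 of WT 1, WT 3, WT 4 or WT 5. Without the libraries high in Y-linked counts (CDK18KO 1, WT 3 and WT 5) the counts were 15 and 8, while the medians were 2.46 and 2.10. The 8 include Tfpi, which was lower in CDK18KO at a log2 fold change of -1.97. The 15 include C3ar1, which was not among the genes counted as higher in DKO with all libraries. In DKO against CDK18KO the count was 1 without DKO 1, DKO 2, CDK18KO 3 or CDK18KO 4, 2 without CDK18KO 5 and 6 without DKO 3. The median log2 fold change was 4.50 without WT 2 in DKO against WT and 3.76 without it in CDK18KO against WT, and it was 0.11 without DKO 2 in DKO against CDK18KO.

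Among 48 further genes of both cascades, made by liver or other cells, 40 passed the filter. In DKO against WT 17 were higher and 2 lower at an unadjusted p under 0.05, in CDK18KO against WT 9 were higher and 4 lower, and in DKO against CDK18KO 7 were higher and 0 lower, beside the shares of all genes given above. One gene, C1rb, a C1r paralog, was called higher after adjustment in both knockouts against WT. Its paralog C1ra stood the other way, at a mean of 0.841 CPM in DKO, 1.23 CPM in CDK18KO and 44.1 CPM in WT, as did C1s1 at 0, 0.159 and 16.5 CPM in DKO, CDK18KO and WT, and neither was called. C1s2, paralog of C1s1, averaged 8.69 CPM in DKO, 2.51 CPM in CDK18KO and 0.275 CPM in WT and was not called. Reads of such paralogs can be split between them in counting, and the part of this in these values was not tested. Vkorc1, the enzyme that recycles vitamin K for the clotting factors, averaged 139 CPM in DKO, 118 CPM in CDK18KO and 36.3 CPM in WT, with log2 fold changes of 1.94 in DKO against WT (edgeR adjusted p = 0.146) and 1.7 in CDK18KO against WT (edgeR adjusted p = 0.168). Ggcx, the carboxylase that uses it, averaged 28.4 CPM in DKO, 22.9 CPM in CDK18KO and 13.1 CPM in WT.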

How the data were processed

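Per the labels' protocols, RNA from snap-frozen tumours was made into QuantSeq 3′ libraries, primed on the poly(A) tail and strand-specific, with a 6-base molecular identifier, and read as single 151-base reads. STAR 2.7.11a, UMI-tools 1.1.2, DESeq2 1.32.0, HTSeq 1.99.2 and FastQC are named in the submitters' processing notes with no order given. Mouse and human builds are both named there without a role, and the annotation counted and whether identifiers were collapsed are not given in the sources used here. The authors deposited raw counts per gene symbol, and bounds at 0 counts (3 counts) cover counting error only.

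The counts of all 14 libraries were fitted with edgeR 4.0.16 in R 4.3.3 (TMM factors, filterByExpr by group with a minimum count of 10, quasi-likelihood F test, two-sided, Benjamini-Hochberg over 13997 genes). Genes kept held 99.0% of counts, and the common biological coefficient of variation was 0.598. Log2 CPM used a prior count of 2. The fit was run on simulated counts with the common dispersion for every gene. No genes shifted together between libraries there, so the fit's behaviour for a set like this was not tested. Ratios were compared by exact permutation and correlations by 100000 permutations within groups. Ratio libraries needed 20 counts of a pair. No pair of libraries of a group was alike within sampling noise, and columns left unused numbered 0.

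The genes, lists and tests were chosen with earlier results of these data known. Values in every library are given for the 8 genes with the smallest p in each comparison and the most abundant gene of each role. Alternatives were DESeq2 1.42.0, RLE factors, no filter and one of 30 counts, only the groups compared, a replicate block, the hepatocyte covariate, libraries without high Y-linked counts, a prior count of 0.5, no minimum for ratios, and each library left out.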

Additional observations from a re-analysis of the deposited data

How the results depend on the processing

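No alternative turned the direction of a fold change for the 8 genes with the smallest p in each comparison. Among other genes of the set the hepatocyte covariate turned the direction of some, such as F12, Proc and Tfpi in DKO against WT. For genes past the test in DKO against WT, 0 in the report, DESeq2 gave 21, no filter on low counts 3 and the replicate block 19. In CDK18KO against WT these gave 10, 1 and 12. Shares over all genes were counted for DESeq2, as given above, but not for the other alternatives. Their counts therefore have no background beside them. With group means removed, same-numbered libraries of different groups correlated by -0.232 to 0.654 (median 0.044), and 6 of 13 pairs exceeded 0.1. Other pairs correlated by -0.596 to 0.666 (median -0.040), and 20 of 52 exceeded 0.1. Whether replicate numbers mark paired libraries cannot be told from these values. With the hepatocyte covariate the unadjusted counts were 1 in DKO against WT and 4 in CDK18KO against WT, and the medians 0.19 and 0.16. Without the libraries of high Y-linked counts the counts in either direction were 15 and 8, with Tfpi lower among the 8. The cause of these shifts was not tested. With each library left out, genes past the test numbered 0 to 0 in all 3 comparisons. The unadjusted count in either direction ran from 20 to 37 in DKO against WT, 9 to 33 in CDK18KO against WT and 1 to 6 in DKO against CDK18KO. The median log2 fold change ran from 2.38 to 4.50, 1.76 to 3.76 and 0.11 to 1.15 for the same comparisons. RLE factors moved the median of all genes by at most -0.018. Depth limits low genes: at 0 counts the bound was 0.412 CPM in WT 2 and 2.31 CPM in WT 5.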

Other observations

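Within CDK18KO, libraries rich in hepatocyte transcripts did not share the same complement profile. CDK18KO 2 had 1224 CPM of Mbl2 and 201 CPM of C8g but 0 counts of C9. CDK18KO 5 had 18.1 CPM of Mbl2, 7.41 CPM of C8g and 3.24 CPM of C4bp but 1457 CPM of Fgb and 199 CPM of C8b. CDK18KO 1, low in most of the set, had the highest Tfpi (143 CPM) and C6 (22.4 CPM) of the 14 libraries.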
